A study of Mus musculus with 18 samples.

Results

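The Dlk1-Dio3 domain lies on mouse chromosome 12, and the genes described here are 4 transcripts of that domain (Meg3, Rian, Mirg and Rtl1) and 6 expressed genes that flank it (Evl, Yy1 and Slc25a29 before it, and Ppp2r5c, Dync1h1 and Hsp90aa1 after it). The 10 genes were taken by symbol from a table of raw read counts with 55450 gene rows, and all 10 passed the filter on low counts that left 17912 genes for testing. Meg3, Rian and Mirg passed it only through the overexpressor libraries and Rtl1 only through the knockout myotubes, the groups in which they were high. They were measured by RNA sequencing of polyadenylated RNA in 18 libraries of C2C12, a mouse myoblast line whose cells fuse into myotubes when serum is lowered. The control was a population of C2C12 cells that had received the pX458 vector alone and were sorted for EGFP. The overexpressor (2-4) and the knockout (2-7) were each 1 clone grown from a single cell after CRISPR-Cas9 editing with a pair of guide RNAs against the proximal promoter region of Meg3. No agent other than the transfected constructs is given for any group, and the labels give the same culture for all 3 lines. Each line was sequenced as myoblasts in growth medium and as myotubes on day 3 of differentiation, in 3 replicates (A, B and C), which makes 6 groups. A clone and its genotype cannot be told apart in this design, and the p-values measure the spread between replicates of 1 line.

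Background on the domain helps in reading the counts. It is an imprinted region: the long noncoding RNAs Meg3, Rian and Mirg are made from the maternal chromosome, run in the same direction, and host many microRNAs and small nucleolar RNAs, while the protein genes Dlk1, Rtl1 and Dio3 are made from the paternal chromosome. A methylated control region upstream of Meg3 decides which set is read. Rtl1, a gene derived from a retrotransposon, lies on the opposite strand and is targeted by microRNAs read from the maternal strand across it. In muscle the noncoding cluster is known for its high activity in stem cells and its decline with maturation.

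Libraries held 41544358 to 79140702 counts. A count of 0 allowed at most 3 counts, which is 0.0375 to 0.0693 CPM (counts scaled to a common library size with TMM factors) depending on the library, and this limit covers counting error only. Of the defining markers of myoblasts (4 genes) and myotubes (6 genes), none was at 0 in any group, and 9 markers of other cell types summed to 0.319 to 2.97 CPM per library. The knockout myoblasts carried 9130 to 11659 CPM of myotube markers, against 243 to 372 CPM in control myoblasts and 423 to 699 CPM in overexpressor myoblasts.

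The targeted gene was not detected in the control or in the knockout. Meg3 (chromosome 12, 109541001 to 109571726, plus strand, mm10) had 0 counts in all 6 control and all 6 knockout libraries. In the overexpressor it had 5363, 6924 and 6199 counts in myoblasts and 5222, 7763 and 7434 counts in myotubes. The groups did not overlap, and the rise over control was at least 1993-fold in myoblasts and at least 1349-fold in myotubes. Meg3 passed the filter on low counts only through the overexpressor libraries, so no test of this rise is given. The level of Meg3 checks the label of the overexpressor, and at this depth it does not separate the knockout from the control.

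Rian and Mirg followed the same pattern. Rian, the host of a small nucleolar RNA array that starts 62.9 kb after Meg3, had 10088, 11467 and 9503 counts in overexpressor myoblasts and 8206, 11117 and 13241 counts in overexpressor myotubes. Control libraries held 1 count of Rian in all, in myoblast replicate B, so the ratio of overexpressor to control myoblasts was 33408, with an exact 95% counting interval of 5996 to 1319570. Against control myotubes, which were at 0, the rise was at least 2159-fold. Mirg, the microRNA host 188.8 kb after Meg3, had 512, 511 and 474 counts in overexpressor myoblasts and 714, 839 and 717 counts in overexpressor myotubes, and none elsewhere. Its rise over control was at least 161-fold in myoblasts and at least 151-fold in myotubes. Rian and Mirg also passed the filter only through the overexpressor libraries, so no test of their rise is given. Only Meg3 and Mirg, of all rows in the table, had at most 3 counts in each of the 12 control and knockout libraries and at least 100 in each of the 6 overexpressor libraries.

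**Figure D1:**
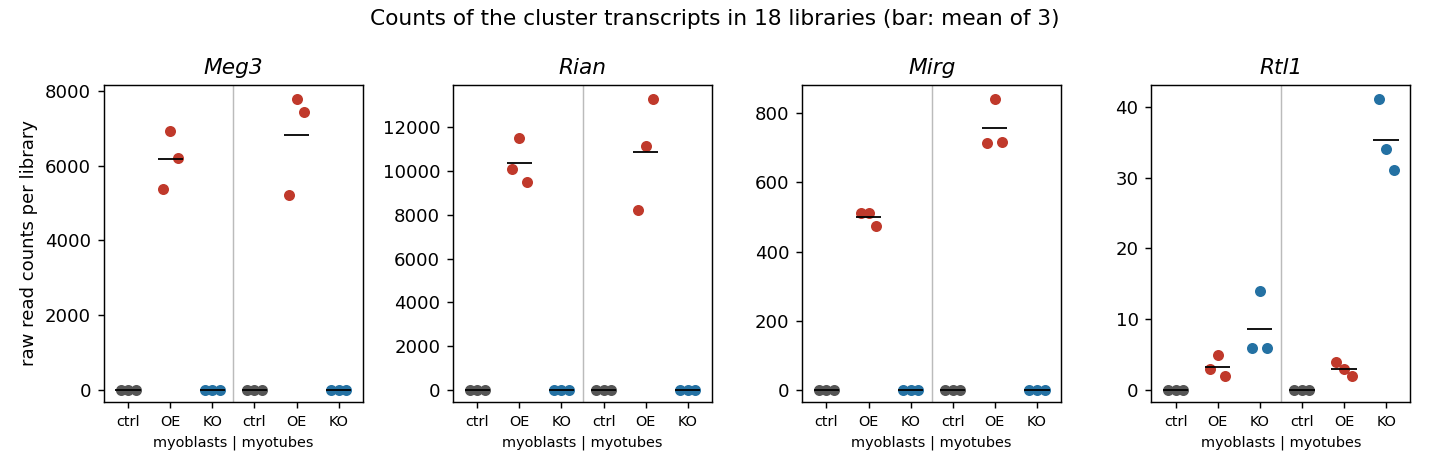
Raw read counts (vertical axis, each panel with its own scale) of Meg3, Rian, Mirg and Rtl1 in every library, with 3 points and a mean bar for control (ctrl), overexpressor (OE) and knockout (KO) in myoblasts and myotubes. Meg3, Rian and Mirg stand above 0 on this scale in the overexpressor groups, while Rtl1 is highest in the knockout myotubes.

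The knockout was not wholly empty. Its myotubes held 4, 4 and 1 counts of Rian, 9 in all against 32564 in overexpressor myotubes, or 0.0276%, and its myoblasts held none. The ratio of overexpressor to knockout myotubes was 2741, with an exact 95% counting interval of 1444 to 5995. The fitted difference between knockout and control myotubes passed the threshold (edgeR quasi-likelihood test, Benjamini-Hochberg adjusted p = 0.0217). It rests on these 9 counts and was lost without control replicate C (adjusted p = 0.0531), knockout replicate A (0.0627) or knockout replicate B (0.0505). Meg3 and Mirg had 0 counts in the same libraries.

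Because the guides were directed at the promoter region of Meg3, a RefSeq promoter window of Meg3 is shown with those of Rian and Mirg, which rose with it. The positions of the guides and of the deletions are not given in the sources used here. The windows run from 250 bases before to 50 bases after a RefSeq start (GRCm38.p6, plus strand), at chr12:109540746-109541045 for Meg3, chr12:109603695-109603994 for Rian and chr12:109734731-109735030 for Mirg. The Mirg window lies inside Mirg as GENCODE M21 places it (from 109729764), so it is not the sequence before that start. Capitals mark the palindromic cyclic AMP response element, the site of CREB family factors.
Meg3: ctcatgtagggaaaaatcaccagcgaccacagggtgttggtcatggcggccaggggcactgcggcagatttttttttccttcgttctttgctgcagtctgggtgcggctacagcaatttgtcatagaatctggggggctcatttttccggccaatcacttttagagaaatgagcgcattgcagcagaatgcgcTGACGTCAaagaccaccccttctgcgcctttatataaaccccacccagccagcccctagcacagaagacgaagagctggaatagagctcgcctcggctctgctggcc
Rian: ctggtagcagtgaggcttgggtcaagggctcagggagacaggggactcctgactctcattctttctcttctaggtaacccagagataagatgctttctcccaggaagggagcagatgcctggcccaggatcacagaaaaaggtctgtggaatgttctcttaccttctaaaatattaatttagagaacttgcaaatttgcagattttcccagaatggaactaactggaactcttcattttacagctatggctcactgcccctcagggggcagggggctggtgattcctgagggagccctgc
Mirg: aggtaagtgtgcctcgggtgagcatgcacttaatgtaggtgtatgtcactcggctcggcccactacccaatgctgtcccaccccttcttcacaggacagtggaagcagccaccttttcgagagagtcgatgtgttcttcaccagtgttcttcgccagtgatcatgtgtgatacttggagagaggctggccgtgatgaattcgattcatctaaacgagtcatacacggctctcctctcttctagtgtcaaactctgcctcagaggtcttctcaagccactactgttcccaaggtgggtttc
The palindrome TGACGTCA starts 57 bases before this Meg3 start, and 1.8% of 32851 RefSeq promoter windows hold it. Both strands were searched, and the shorter half-site TGACG, which is part of the palindrome, was found at 20.8% of windows and in neither the Rian nor the Mirg window. The Meg3 window holds 13 CpG pairs and the Mirg window 10, while the Rian window holds 0, against a median of 7 over all windows. RefSeq gives Meg3 a second start, whose window (109545148 to 109545447) holds 1 CpG pair and neither the palindrome nor the half-site. The GC box GGGCGG (found in 35.7% of windows) and the YY1 core CCATNTT (16.1%) were in none of these 4 windows. Such matches describe the letters only.

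Within the overexpressor, Meg3 and Rian fell as the cells differentiated and Mirg did not change detectably. Meg3 went from 107.1, 149.3 and 143.2 CPM in myoblasts to 77.5, 97.1 and 103.3 CPM in myotubes, with no overlap. Its log2 fold change was -0.52 ± 0.15 (SE, adjusted p = 0.0181, edgeR). Without myoblast replicate B it was -0.43 (adjusted p = 0.0673), and without myoblast replicate C it was -0.47 (adjusted p = 0.0656). Rian went from 201.4, 247.3 and 219.6 CPM to 121.9, 139.0 and 183.9 CPM, a log2 fold change of -0.59 ± 0.14 (adjusted p = 0.00263). Mirg stayed between 9.96 and 11.02 CPM in all 6 libraries, with a log2 fold change of -0.05 and a 95% interval of -0.31 to 0.20 (adjusted p = 0.733). In this comparison 62.8% of all genes passed the threshold.

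The proportions of the 3 noncoding transcripts were read from ratios of counts within a library. Mirg per Meg3 was 0.0819 ± 0.0118 in overexpressor myoblasts and 0.114 ± 0.0207 in overexpressor myotubes (SD, n = 3 each), and the stages did not overlap. The exact two-sided permutation p was 0.1, the smallest that 3 against 3 libraries allow. Mirg per Rian was 0.0484 ± 0.00335 and 0.0722 ± 0.0167, with the same p, and Rian per Meg3 was 1.69 ± 0.176 and 1.59 ± 0.176 (exact permutation p = 0.6). Adjusted over the 3 ratios, these p-values were 0.15, 0.15 and 0.6. Per kilobase of exon, Rian was the most abundant of the 3, at 12.2 ± 1.27 RPKM in overexpressor myoblasts, followed by Meg3 at 7.36 ± 1.26 and Mirg at 1.47 ± 0.0609 (SD, n = 3 each). In overexpressor myotubes the order was the same, at 8.13 ± 1.76, 5.12 ± 0.742 and 1.42 ± 0.0473 RPKM. Levels of the 3 genes did not overlap in either stage.

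Library by library, the deviations of Meg3, Rian and Mirg were compared in pairs. Over the 6 overexpressor libraries, deviations of log2 CPM from the mean of their stage gave r = 0.79 for Meg3 and Rian (exact permutation p = 0.111 over all 36 reorderings within stages, adjusted p = 0.333 over 3 pairs) and rho = 0.89 (permutation p = 0.0278, adjusted 0.0833). Without the 2 libraries farthest from the median of Meg3, r was 0.84. For Meg3 and Mirg r was 0.29 (permutation p = 0.722, rho = 0.49 with p = 0.583), and it was -0.27 without the 2 farthest libraries. For Rian and Mirg r was -0.26 (permutation p = 0.667, rho = 0.03 with p = 1), and 0.75 without the 2 farthest libraries, so neither relation held. None of the 3 passed the threshold after adjustment. Replicate A of each stage was low in both Meg3 and Rian, and myotube replicate C was high in both.

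**Figure D2:**
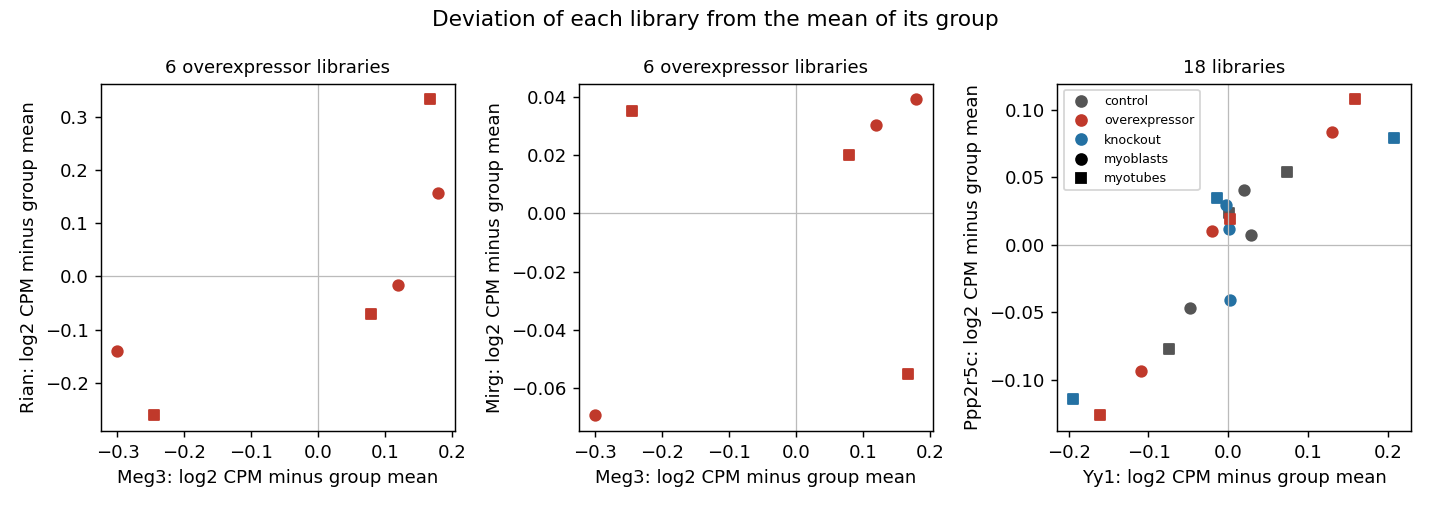
Each point is 1 library, placed by its log2 CPM minus the mean of its group (both axes), with circles for myoblasts and squares for myotubes. The left and middle panels show the 6 overexpressor libraries (Meg3 with Rian, r = 0.79, and Meg3 with Mirg, r = 0.29), and the right panel shows Yy1 with Ppp2r5c in 18 libraries (r = 0.92).

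Rtl1, the gene antisense to the cluster, behaved otherwise. It had 0 counts in all 6 control libraries. The overexpressor had 3, 5 and 2 counts in myoblasts and 4, 3 and 2 in myotubes. The knockout had 6, 14 and 6 counts in myoblasts and 41, 34 and 31 in myotubes, the highest of any group. The rise over control in the knockout was at least 2.45-fold in myoblasts and at least 9.31-fold in myotubes, and the groups did not overlap. Rtl1 passed the filter on low counts only through the knockout myotubes, so no test of Rtl1 is given. Within the knockout Rtl1 rose on differentiation by 1.94 on the log2 scale. In myotubes the overexpressor was below the knockout by a log2 fold change of -3.88. In myoblasts it was -1.18, and these groups overlapped within their CPM ranges. At its highest Rtl1 reached 0.700 CPM, so it remained a scarce transcript in every group.

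There are 6 plus-strand microRNA genes inside the exons of Rtl1, and their mature sequences are complementary to it. RefSeq gives 11 mature sequences for the 6 genes, and the reverse complement of each of the 11 is found in the Rtl1 transcript of 6358 bases (GENCODE M21). All 11 have different seeds. Both mature sequences of the 3 genes nearest the Rtl1 start among the ones with a count are shown, with the seed (bases 2 to 8) in capitals.
mmu-miR-127-5p: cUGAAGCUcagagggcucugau
mmu-miR-127-3p: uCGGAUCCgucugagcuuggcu
mmu-miR-434-5p: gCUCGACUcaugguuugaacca
mmu-miR-434-3p: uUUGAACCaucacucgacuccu
mmu-miR-136-5p: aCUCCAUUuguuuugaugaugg
mmu-miR-136-3p: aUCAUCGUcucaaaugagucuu
In this order they are read at chr12:109592854-109592875, chr12:109592888-109592909, chr12:109594528-109594549, chr12:109594565-109594586, chr12:109595331-109595352 and chr12:109595366-109595387. The 6 genes together had 18 counts in the overexpressor libraries, where Rtl1 had 19, and 0 in the knockout libraries, where Rtl1 had 132. In the control libraries both the 6 genes and Rtl1 had 0 counts, so the 3 lines show no single inverse order. The strand setting of the counting is not given in the sources used here, so reads of the 2 strands cannot be told apart here. Polyadenylated libraries count fragments of precursors, and these values do not measure mature microRNAs.

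The rest of the domain shows where the signal began and ended. From Dlk1 to Dio3, 828.3 kb, the table of counts holds 116 annotated genes. Of these 46 had a count in any library, 38 had counts in the overexpressor alone and 7 were tested. Summed over 6 libraries each, they held 108294 counts in the overexpressor, 129 in the control and 252 in the knockout. Of the overexpressor counts 106553 fell on plus-strand genes, the strand of Meg3, against 2 in the control and 9 in the knockout. Of 67 microRNA genes 29 had a count in the overexpressor, 111 counts in all, and none had a count elsewhere. Of 23 small nucleolar RNA genes 1 had 21 counts in the overexpressor and none elsewhere.

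Both ends of the domain were quiet in every line. Dlk1, a transmembrane inhibitor of differentiation 88.2 kb before Meg3, had 1 count in the 18 libraries. Dio3, the deiodinase that inactivates thyroid hormone 738.1 kb after Meg3, also had 1 count. Among genes that start past the end of Mirg, the only plus-strand count of any line was that 1 count of Dio3. Mir3072, which lies inside Mirg near its end, had 19 counts. The minus-strand Gm3379, a pseudogene 354.1 kb after Meg3, had 73 counts in control, 80 in overexpressor and 62 in knockout libraries, and no contrast between lines passed the threshold. Gm34719, a minus-strand noncoding RNA gene at 545.4 kb, was also named after its values were seen. It had 13, 9 and 14 counts in control myotubes and 0, 1 and 0 in knockout myotubes. The ratio was 39.4, with an exact 95% counting interval of 6.63 to 1598. This interval covers counting error only and leaves out the spread between replicates. Control myoblasts had 4, 6 and 0 counts and knockout myoblasts 0, 4 and 1, so these groups overlapped. Gm34719 had few counts in any library, and no test is given.

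Upstream of Meg3 another noncoding RNA was high in the overexpressor. Gm34081, a minus-strand gene that starts 24.3 kb before Meg3, was singled out after its values were seen and passed the filter on low counts only through the overexpressor libraries, so its values are a description with no test. It had 286, 343 and 308 counts in overexpressor myoblasts and 166, 258 and 225 in overexpressor myotubes. Control libraries held 2 counts in all, and knockout libraries 5, 2 and 1 in myoblasts and 12, 10 and 13 in myotubes. The rise of the overexpressor over control was at least 101-fold in myoblasts. In myotubes, where control held 2 counts, the ratio was 225 with an exact 95% counting interval of 62.0 to 1860. Its log2 fold change on differentiation was -1.19 in the overexpressor and 2.01 in the knockout.

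**Figure D3:**
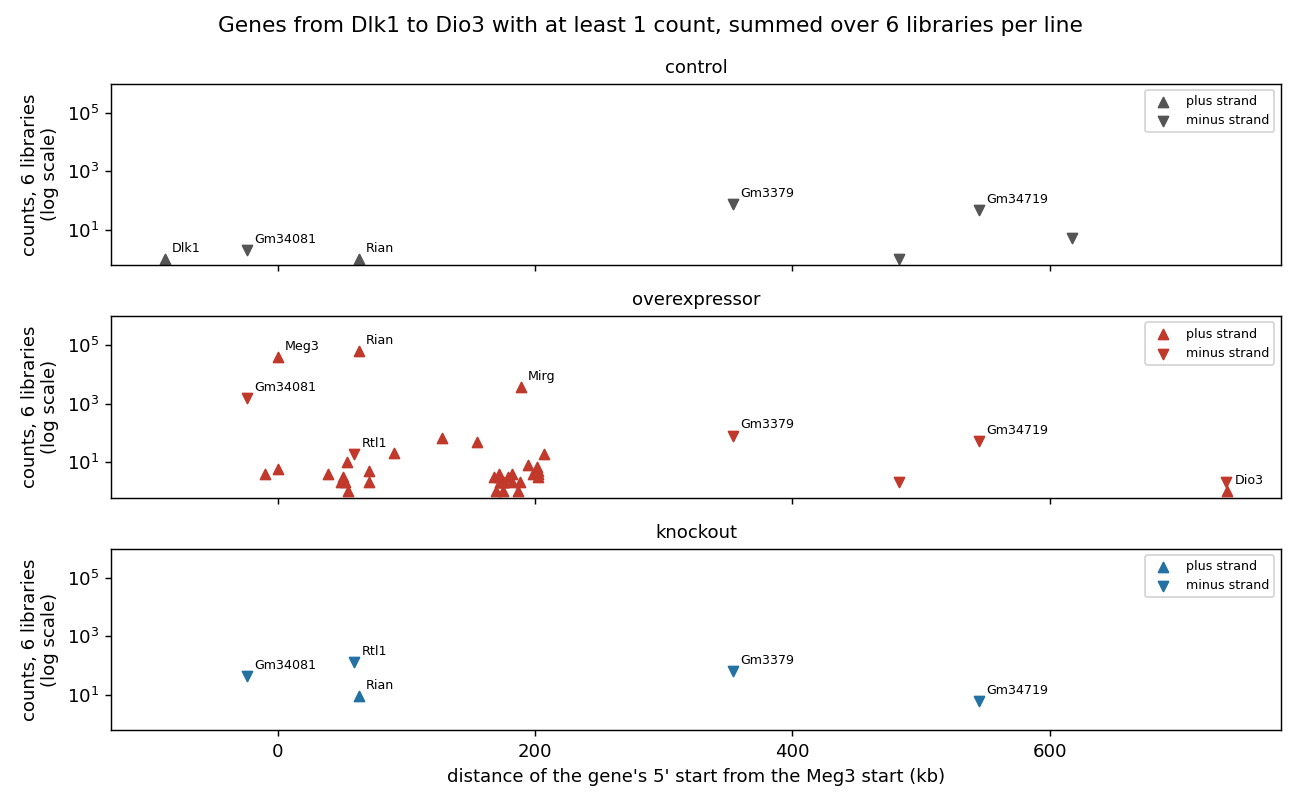
Counts summed over 6 libraries per line (vertical axis, log scale) for each gene from Dlk1 to Dio3 with at least 1 count, against the distance of its start from the Meg3 start in kb, with upward triangles for plus-strand and downward triangles for minus-strand genes. The overexpressor fills the stretch from Gm34081 to the end of Mirg, while the control and knockout panels hold few genes, with Gm3379 at a like level in all 3.

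The flanking genes were expressed in all lines, and their changes were small beside those of the cluster. In overexpressor myoblasts 4 of the 6 were higher than in control and none lower (over all genes tested, 40.4% were called, 20.7% higher and 19.7% lower). In knockout myoblasts 1 was higher and 2 were lower (53.0% of all genes, 26.4% higher and 26.6% lower). In overexpressor myotubes 1 was higher and 1 lower (57.1%, 26.2% and 30.9%), and scaling by DESeq2 size factors or by library totals gave 3 higher and 1 lower. In knockout myotubes 1 was higher and 5 were lower (68.0%, 31.0% and 37.0%). Between the clones 3 of the 6 differed in myoblasts (52.6% of all genes) and 4 in myotubes (59.7%). On differentiation 4 of the 6 changed in the control line (62.8%), or 2 with library totals, 3 in overexpressor cells (62.8%) and 5 in knockout cells (65.4%). The change on differentiation differed from control for 2 of the 6 in the overexpressor (39.0% of all genes) and for 5 in the knockout (50.1%), and between the clones for 5 (46.7%). With this many genes called genome-wide, a count of called flanking genes is read beside these shares. The overexpressor and knockout comparisons share the control libraries. All values are from bulk RNA, in which fewer cells of a type and less RNA per cell cannot be told apart.

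On the side before Meg3, Evl (chromosome 12, 108554720 to 108688516, 986.3 kb before it), an actin regulator of the Ena/VASP family, had 94.4, 99.4 and 100.3 CPM in control myoblasts and 118.3, 107.8 and 119.5 CPM in overexpressor myoblasts. Knockout myoblasts had 75.7, 73.4 and 73.9 CPM, so the 3 lines were separate. The log2 fold change was 0.23 ± 0.07 in the overexpressor (adjusted p = 0.0158) and -0.40 ± 0.07 in the knockout (adjusted p = 0.000156, edgeR). The overexpressor call was lost without control replicate A (adjusted p = 0.0714), overexpressor replicate A (0.0597) or C (0.0643). Evl fell on differentiation in every line, by 1.03 ± 0.07 in control, 1.13 ± 0.07 among overexpressor libraries and 0.36 ± 0.07 among knockout libraries on the log2 scale. In myotubes the knockout was highest on average: 46.8 to 49.0 CPM in control, 45.6 to 56.6 CPM among overexpressor libraries and 56.0 to 61.1 CPM among knockout libraries. The knockout was higher than control there by 0.26 ± 0.07 (adjusted p = 0.00422). The overexpressor differed from control by 0.13 ± 0.07 (adjusted p = 0.149), which passed the threshold under DESeq2 size factors (0.0226), the DESeq2 Wald test (0.0248), library totals (0.00342) and without overexpressor replicate C (0.000486). Part of the Evl exons (278 bases) overlaps Degs2 on the other strand.

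Slc25a29, a mitochondrial carrier of basic amino acids that lies 705.1 kb before Meg3, was higher than control in both clones as myoblasts. It had 11.4, 12.02 and 12.2 CPM in control, 21.7, 16.8 and 19.7 CPM among overexpressor libraries and 15.9, 18.01 and 16.4 CPM among knockout libraries. The log2 fold changes were 0.71 ± 0.11 (adjusted p = 5.71e-05) and 0.50 ± 0.11 (adjusted p = 0.00119, edgeR), and the clones overlapped each other. It rose on differentiation in every line, by 1.25 ± 0.11 in control, 0.86 ± 0.11 among overexpressor libraries and 0.43 ± 0.11 among knockout libraries on the log2 scale. In myotubes the overexpressor stood at 31.9 to 39.2 CPM, the control at 24.1 to 30.5 CPM and the knockout at 21.2 to 25.0 CPM. The difference of overexpressor and control there was 0.32 ± 0.11 (adjusted p = 0.0198), lost without control replicate C (0.12) or overexpressor replicate A (0.1). The difference of knockout and control was -0.33 ± 0.11 with overlapping groups (adjusted p = 0.0143). It was lost with DESeq2 size factors (-0.20, adjusted p = 0.153), with the DESeq2 Wald test (adjusted p = 0.194), with the compared groups alone (0.0646) and without control replicate A (0.0608), control replicate B (0.0623) or knockout replicate B (0.0613).

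Yy1, a zinc finger transcription factor 748 kb before Meg3, was level among myoblasts, at 95.3 to 100.6 CPM in control, 97.8 to 115.5 CPM among overexpressor libraries and 98.7 to 99.0 CPM among knockout libraries. The log2 differences from control were 0.10 (95% interval -0.09 to 0.30) and 0.00 (95% interval -0.19 to 0.20). In myotubes it had 108.1, 102.6 and 113.6 CPM in control, 89.5, 100.2 and 111.6 CPM among overexpressor libraries and 85.8, 73.6 and 64.9 CPM among knockout libraries. The knockout was lower by a log2 fold change of -0.53 ± 0.09 (adjusted p = 6.34e-05, edgeR), and its libraries lay below every other myotube library.

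On the far side, Ppp2r5c, a regulatory subunit of protein phosphatase 2A that starts 906.1 kb after Meg3, had 116.9, 112.6 and 119.7 CPM in control myoblasts and 152.5, 160.4 and 141.9 CPM in overexpressor myoblasts. This was a log2 fold change of 0.38 ± 0.07 (adjusted p = 0.000208, edgeR) with no overlap, while knockout myoblasts (111.4 to 117.0 CPM) overlapped the control, with a 95% interval of -0.17 to 0.12 for the difference. In myotubes the knockout had 107.0, 103.8 and 93.6 CPM against 144.6, 134.9 and 147.7 CPM in control. This was a log2 fold change of -0.49 ± 0.07 (adjusted p = 6.4e-06). The overexpressor myotubes (139.4 to 163.9 CPM) overlapped the control, with a log2 fold change of 0.10 ± 0.07 (adjusted p = 0.24). It passed the threshold under DESeq2 size factors (0.21, adjusted p = 0.0118), the DESeq2 Wald test (0.00565) and library totals (0.24, adjusted p = 0.00849).

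Dync1h1, the heavy chain of cytoplasmic dynein, which carries cargo along microtubules, starts 1060.5 kb after Meg3 and was the most abundant of the 6 per kilobase in control cells. Control myoblasts had 696.3, 621.8 and 616.6 CPM, overexpressor myoblasts 717.5, 748.6 and 795.6 CPM and knockout myoblasts 392.2, 435.7 and 457.4 CPM. The log2 fold changes were 0.23 ± 0.07 in the overexpressor (adjusted p = 0.0213) and -0.59 ± 0.07 in the knockout (adjusted p = 2.37e-06, edgeR). The former was lost with library totals (0.18, adjusted p = 0.0596) and without control replicate B (0.0873), control replicate C (0.0953) or overexpressor replicate C (0.0956). In myotubes control had 771.7, 854.8 and 777.5 CPM, and both clones were lower, at 466.7 to 513.7 CPM among overexpressor libraries and 428.4 to 489.9 CPM among knockout libraries. The log2 fold changes were -0.71 ± 0.07 and -0.80 ± 0.07 (adjusted p = 1.77e-07 and 3.15e-08). Dync1h1 rose on differentiation in control by 0.31 ± 0.07 and fell by 0.63 ± 0.07 in the overexpressor on the log2 scale. With library totals the rise in control was 0.07 and was not called (adjusted p = 0.432), while the fall in the overexpressor was called under each alternative scaling.

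Hsp90aa1, the stress-inducible cytosolic HSP90 chaperone, starts 1161.7 kb after Meg3 and varied most between replicates. In myoblasts it had 103.0, 76.8 and 82.9 CPM in control, 89.0, 167.7 and 121.2 CPM among overexpressor libraries and 95.5, 100.0 and 84.9 CPM among knockout libraries, and no contrast between lines passed the threshold. In myotubes control had 82.9, 71.5 and 99.9 CPM and the knockout 29.0, 20.7 and 15.9 CPM, a log2 fold change of -1.95 ± 0.36 (adjusted p = 0.000217, edgeR). The overexpressor myotubes had 50.5, 46.5 and 128.9 CPM, with replicate C apart from the others. Their difference from control was -0.17 ± 0.34 (adjusted p = 0.696), and without replicate C it was -0.70 (adjusted p = 0.0286).

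**Figure D4:**
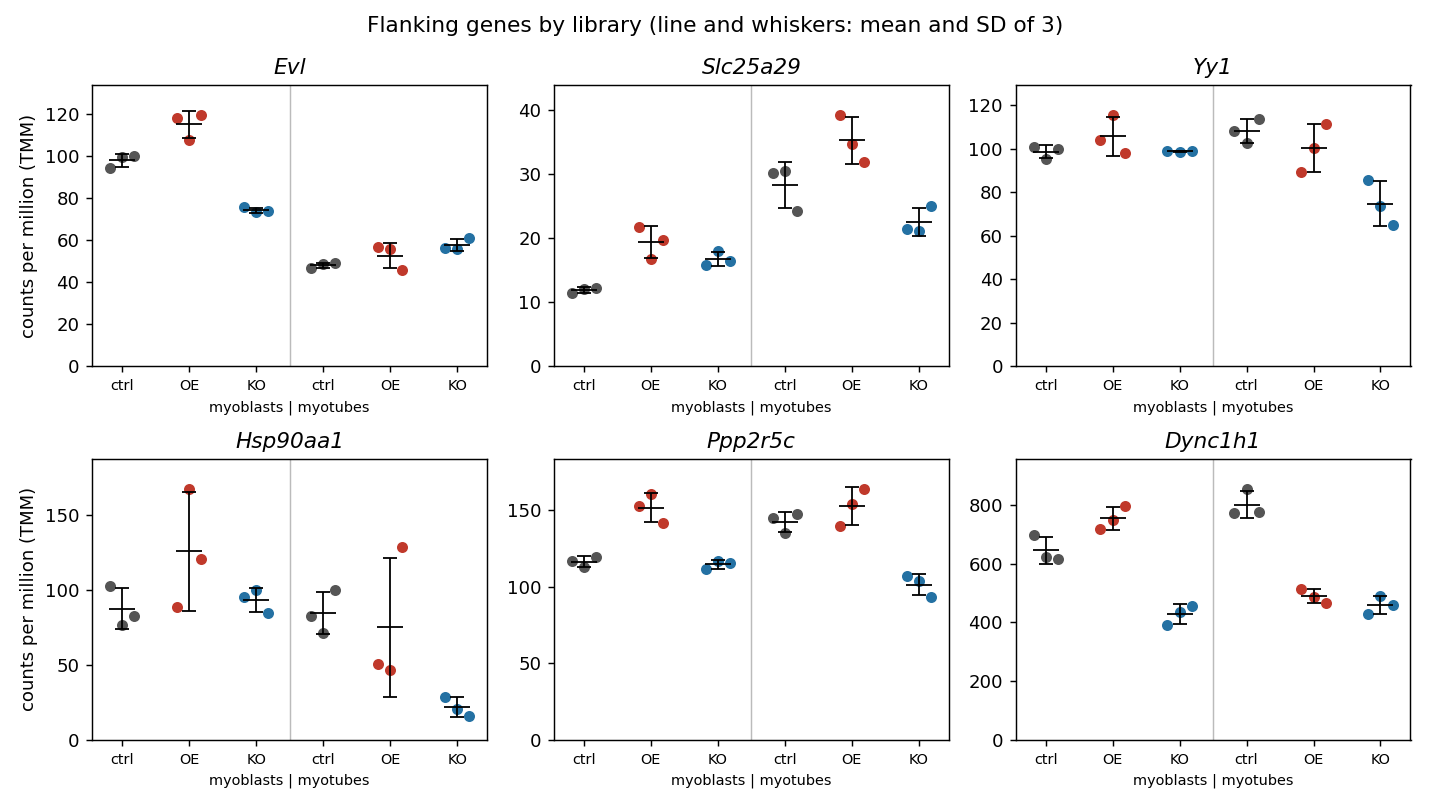
CPM (TMM) of the 6 flanking genes in every library, with the mean and SD of 3 libraries for control (ctrl), overexpressor (OE) and knockout (KO) in myoblasts and in myotubes. Knockout myotubes are lowest for Yy1, Ppp2r5c and Hsp90aa1, both clones lie below control for Dync1h1 in myotubes, and overexpressor myotube replicate C stands apart for Hsp90aa1.

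The knockout myoblasts, in which Evl and Dync1h1 were lower and Slc25a29 was higher, are the group whose myotube markers were already high (9130 to 11659 CPM). On differentiation of control cells Evl fell (log2 fold change -1.03), while Dync1h1 (0.31, or 0.07 with library totals) and Slc25a29 (1.25) rose. In myotubes these markers summed to 29463 to 35123 CPM in the knockout, 20785 to 22899 CPM in the overexpressor and 13607 to 14059 CPM in control. The part of this state in the flanking values was not tested.

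To ask how far the change at the cluster reached, all tested genes around it were counted by distance, leaving out those from Dlk1 to Dio3. Within 1 Mb of the Meg3 start 14 of the 28 annotated genes in the table of counts were tested, among them 8 of 9 protein-coding genes. In overexpressor myoblasts 8 of the 14 (57.1%) were called against 40.4% of all genes, 6 of them higher, with a median log2 fold change of 0.19 against 0.02 for all genes. In knockout myoblasts 4 (28.6%) were called against 53.0%, with medians of -0.07 and 0.02. In overexpressor myotubes 4 (28.6%) were called against 57.1%, with medians of -0.22 and -0.04, and in knockout myotubes 10 (71.4%) against 68.0%, with medians of -0.50 and -0.07. In overexpressor myotubes the 14 genes gave 1 higher and 3 lower, or 3 higher and 2 lower with DESeq2 size factors or library totals, and 2 called without overexpressor replicate A. The share in knockout myotubes lay near the background (9 to 10 called with a library left out), and the count in overexpressor myoblasts ran from 6 to 8 with a library left out.

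In wider windows the shares of 3 of the 4 comparisons lay closer to the background. Within 2 Mb, with 44 genes, 50% were called in overexpressor myoblasts, 43.2% in knockout myoblasts, 54.5% in overexpressor myotubes and 70.5% in knockout myotubes. Within 5 Mb, with 99 genes, the shares were 45.5%, 52.5%, 54.5% and 73.7%. The median absolute log2 fold change in overexpressor myoblasts was 0.28 for the 10 genes up to 1 Mb before Meg3 and 0.39 for the 4 genes up to 1 Mb after it, against 0.35 for the 454 genes over 20 Mb before Meg3 and 0.32 for all genes. Bins of so few genes show no order by distance.

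The median of the neighbourhood in overexpressor myoblasts was near that of the whole chromosome. Chromosome 12 had the highest median log2 fold change of 20 chromosomes in overexpressor against control myoblasts, at 0.16, and genes over 20 Mb before Meg3 had a median of 0.15. Of its 640 tested genes outside the domain 248 (38.8%) were called, 175 higher and 73 lower. In knockout against control myotubes it was the third lowest of 20, at -0.41, where chromosome 13 was lowest at -0.57. In the other two comparisons with control it was nearer the middle, at -0.03 in knockout myoblasts and 0.01 in overexpressor myotubes. These medians are descriptions, with no test.

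**Figure D5:**
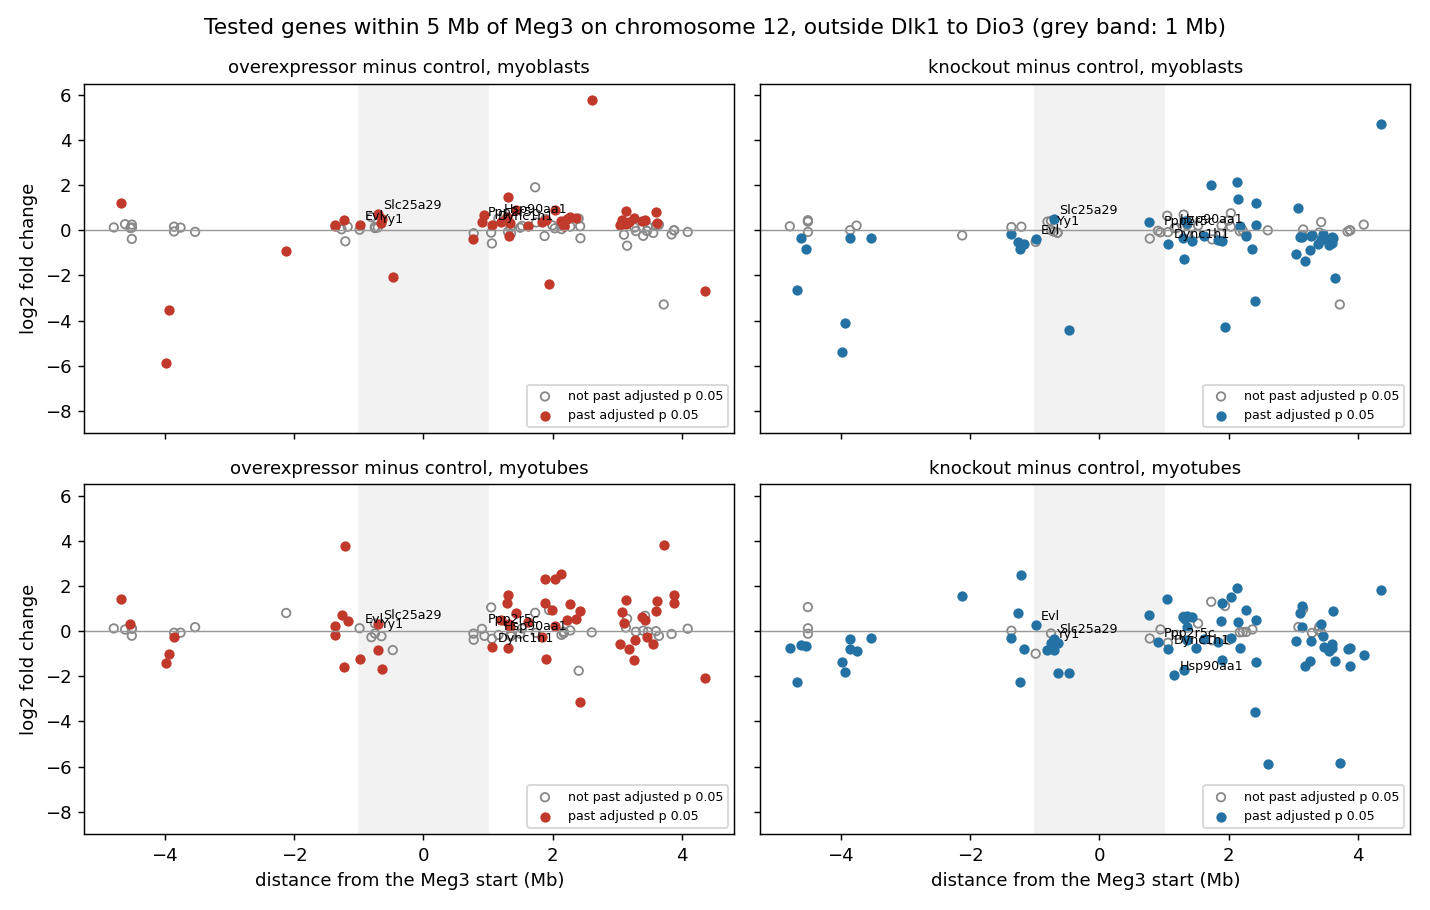
Log2 fold change against control (vertical axis) of the 99 tested genes within 5 Mb of the Meg3 start (horizontal axis, Mb) outside Dlk1 to Dio3, for each clone and stage, with filled points past an adjusted p of 0.05 and open points not past it. The grey band marks 1 Mb on either side, and filled and open points lie on both sides of Meg3 in each panel.

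Among the other protein-coding neighbours before the domain, Wars, the tryptophan tRNA synthetase, was lower in the myotubes of both clones. It had 338 ± 18.7 CPM in control myotubes, 106 ± 8.68 CPM in overexpressor myotubes and 94.6 ± 7.29 CPM in knockout myotubes (SD, n = 3 each). The log2 fold changes were -1.67 ± 0.07 and -1.84 ± 0.08 (adjusted p = 1.72e-12 and 4.35e-13, edgeR). In overexpressor myoblasts Wars was higher by 0.48 ± 0.07 (adjusted p = 3.37e-05). Wdr25 was higher in overexpressor myoblasts (0.33 ± 0.11, adjusted p = 0.0205, with a range of 0.0608 to 0.115 over the 4 single libraries whose omission ended the call, 0.0652 with no filter and 0.0645 with the compared groups alone) and lower in knockout myotubes (-0.51 ± 0.11, adjusted p = 0.000421). Slc25a47, a mitochondrial carrier gene beside Slc25a29, was lower in the myotubes of both clones (-0.85 ± 0.18 and -0.83 ± 0.19, adjusted p = 0.000586 and 0.000689). Begain, 472.8 kb before Meg3 and the nearest tested protein-coding gene outside the domain, had 23, 25 and 20 counts in control myoblasts, 9, 2 and 4 in overexpressor myoblasts and 1, 2 and 0 in knockout myoblasts. The ratio of control to knockout was 23.8, with an exact 95% counting interval of 7.80 to 118 (adjusted p = 1.75e-05, edgeR).

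From 1 to 5 Mb, the stretch that also holds Dync1h1 and Hsp90aa1, genes on both sides of Meg3 changed. Ckb, the brain-type creatine kinase 2131.3 kb after Meg3, was higher than control in knockout myoblasts (log2 fold change 2.15 ± 0.14), overexpressor myotubes (2.52 ± 0.14) and knockout myotubes (1.90 ± 0.13). Bdkrb2, a bradykinin receptor gene 3977.8 kb before Meg3, was lower in the myoblasts of both clones (-5.89 ± 0.27 and -5.37 ± 0.25). Cyp46a1, a cholesterol hydroxylase 1206.6 kb before Meg3, was higher in overexpressor myotubes (3.78 ± 0.22), and Hhipl1, 1234.7 kb before it, was lower in the myotubes of both (-1.60 ± 0.11 and -2.27 ± 0.12). These genes were picked as the largest changes among the called genes of a comparison, so no p-value is given. They do not describe the other genes of the stretch.

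The flanking genes were also compared library by library within groups, where some libraries stood apart over all genes. The chi-square per gene between replicates was 119 and 114 for overexpressor myotube replicate C against A and B, and 23.1 between A and B. It was 37.3 and 33.1 for overexpressor myoblast replicate B against A and C, and 8.47 between A and C. Knockout myotube replicates A and C gave 55.5. The part of these libraries in the relations that follow was measured only by leaving out each library in turn. Deviations of log2 CPM from group means in 18 libraries were compared for 15 pairs, with all 46656 reorderings within groups, and 7 pairs had an adjusted p below the threshold of 0.05. The share of pairs of any genes that would pass was not measured. The 7 pairs therefore cannot be read as particular to the flanking genes. Yy1 and Ppp2r5c, which lie on opposite sides of the domain, were closest, with r = 0.92 (permutation, adjusted p = 0.00772), rho = 0.85 and r = 0.93 without the 2 libraries farthest from the median of Yy1. Yy1 and Hsp90aa1 gave r = 0.79 (permutation, adjusted p = 0.0374), rho = 0.72 and r = 0.77 without the 2 farthest. Evl went the other way, with r = -0.87 against Hsp90aa1 (permutation, adjusted p = 0.0374), rho = -0.73 and r = -0.72 without the 2 farthest. With library totals in place of TMM factors 5 pairs passed, 4 of them the same, and Yy1 with Ppp2r5c kept r = 0.95, while Evl with Hsp90aa1 gave -0.77 (permutation, adjusted p = 0.0954). By rho 1 pair passed. Without any 1 library, r ran from 0.89 to 0.95 for Yy1 with Ppp2r5c, from 0.75 to 0.87 for Yy1 with Hsp90aa1 and from -0.91 to -0.68 for Evl with Hsp90aa1.

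The genes whose pattern over the 18 libraries was most like that of Meg3 were taken by correlation of log2 CPM. Mirg (r = 1.00) and Rian (r = 1.00) came first, then AU018091 (0.98), Dok5 (0.98) and Pcdhga7 (0.98). AU018091 had 25.0 CPM in overexpressor myoblasts and 15.6 CPM in overexpressor myotubes, against 0.759 to 1.56 CPM in the other groups. Dok5, an adaptor protein gene, had 1.71 and 2.34 CPM in the overexpressor and at most 0.0513 CPM elsewhere. Such correlations rest on the difference between 1 clone and the others, and are a description.

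A list of 19 regulators of the methylation imprint or of transcription of the domain, of which 18 were tested, changed in both directions in every comparison with control. In overexpressor myoblasts 3 were higher and 3 lower (33.3% against 40.4% of all genes), and in knockout myoblasts 4 higher and 4 lower (44.4% against 53.0%). In overexpressor myotubes 7 were higher and 6 lower (72.2% against 57.1%), and in knockout myotubes 5 higher and 9 lower (77.8% against 68.0%). The 4 genes named next were picked as the largest called changes of the list and do not describe its other genes. Aff3, whose protein is known to bind the control region of this domain, had 73.4 ± 9.50 CPM in control myotubes, 0.328 ± 0.0179 CPM in overexpressor myotubes and 1.84 ± 0.205 CPM in knockout myotubes (SD, n = 3 each). In myoblasts Aff3 was lower in the overexpressor than in control (log2 fold change -2.58 ± 0.14), with 0.02 ± 0.12 in the knockout. Mef2c, a muscle transcription factor of a family known to act on the Meg3 promoter, had 26.5 ± 3.32 CPM in knockout myoblasts against 0.163 ± 0.0519 CPM in control myoblasts, and Mef2a rose there by 1.84 ± 0.20 on the log2 scale. Uhrf1, which maintains methylation at replication, was higher in the myotubes of both clones (2.20 ± 0.14 and 2.56 ± 0.14).

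A second list held 23 partners and paralogs of the flanking genes, of which 21 were tested, with Slc25a47 being also a neighbour within 1 Mb. In overexpressor myoblasts 7 were higher and 4 lower (52.4% against 40.4% of all genes), and in knockout myoblasts 8 and 2 (47.6% against 53.0%). In overexpressor myotubes 5 were higher and 8 lower (61.9% against 57.1%), and in knockout myotubes 7 and 7 (66.7% against 68.0%). The 4 genes named next were picked as the largest called changes of the list and do not describe its other genes. Dync1i1, a dynein intermediate chain, had 147 ± 10.7 CPM in overexpressor myoblasts against 3.58 ± 0.314 CPM in control (SD, n = 3 each), a log2 fold change of 5.35 ± 0.10. Enah, a relative of Evl, was lower there by -1.57 ± 0.09, while Ppp2r5b, a relative of Ppp2r5c, was higher by 1.11 ± 0.09. Vasp was higher in overexpressor myotubes by 1.04 ± 0.08.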

How the data were processed

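Per the submitters' processing notes, reads were handled with FastQC 0.11.7, STAR 2.7.9a, featureCounts (Subread 2.0.3) and DESeq2 1.32.0 on mm10. The authors deposited raw counts per Ensembl gene. Annotation release, strand setting and handling of multiply mapped reads are not given in the sources used here, so overlapping genes on opposite strands are uncertain. Positions and symbols are from GENCODE M21 (GRCm38), which matched 55104 of 55450 rows. Libraries were placed by their titles, and none was left out.

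All 18 libraries entered 1 fit of 6 groups in edgeR 4.0.16 (R 4.3.3): TMM factors (0.895 to 1.08), filterByExpr by group, robust quasi-likelihood test, Benjamini-Hochberg adjustment over 17912 genes, threshold 0.05. Levels per kilobase (RPKM) used merged exon lengths. Correlations used log2 CPM with a prior count of 2. Of the steps, the edgeR fit was tested on simulated counts. Named genes were the 10, every tested neighbour within 1 Mb with an ordinary symbol, up to 3 each way from 1 to 5 Mb (mean of 5 CPM) and 4 per list. The last 2 kinds were the largest log2 fold changes among genes called against control. The genes and lists were chosen with earlier results of these data known. Alternatives were DESeq2 (1.42.0) and its size factors, library totals, no filter, the replicate block, the compared groups alone, each library left out, and windows of 2 and 5 Mb. Library totals and omitted libraries for the flanking correlations, and the naming of Gm34081, Gm3379 and Gm34719, were chosen after seeing the data.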

Additional observations from a re-analysis of the deposited data

Results flagged for a closer look

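The change on differentiation differed between lines for several of these genes, by the test of that difference in edgeR (Benjamini-Hochberg adjusted p over all genes). The overexpressor and the knockout are each set against the same control libraries, so these values are not independent of each other. Over all genes 39.0%, 50.1% and 46.7% passed this test for overexpressor against control, knockout against control and overexpressor against knockout, and of the 6 flanking genes 2, 5 and 5 passed.

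The log2 change of Dync1h1 was 0.31 in control (0.07 with library totals, adjusted p = 0.432) and -0.63 in the overexpressor, and the difference of log2 changes was -0.94 (adjusted p = 1.06e-06). Against the knockout, where the change was 0.10 (adjusted p = 0.241), the difference was -0.73 (adjusted p = 2.54e-05). Evl fell less in the knockout than in control, by a difference of 0.66 (adjusted p = 4.4e-05), and fell more in the overexpressor than in the knockout (-0.77, adjusted p = 1.2e-05). Slc25a29 rose less in the knockout than in control (-0.82, adjusted p = 0.000336).

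Yy1, Ppp2r5c and Hsp90aa1 gave -0.54 (adjusted p = 0.00252), -0.47 (adjusted p = 0.000728) and -2.05 (adjusted p = 0.00322) for knockout against control. Within the cluster, the fitted value for Rian was -5.21 for overexpressor against knockout. It rests on 9 counts in knockout myotubes and none in knockout myoblasts, so its size is not a measured difference and no test is given. Rtl1 gave -2.71 for overexpressor against knockout, and -2.30 without overexpressor myoblast replicate B. It passed the filter on low counts only through the knockout myotubes, so no test of this difference is given.

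Values near the threshold were Ppp2r5c at -0.28 for overexpressor against control (adjusted p = 0.0284), and, for overexpressor against knockout, Yy1 at 0.33 (adjusted p = 0.048), Slc25a29 at 0.43 (adjusted p = 0.0313) and Hsp90aa1 at 1.35 (adjusted p = 0.0352). Without overexpressor myotube replicate C, which stood apart for Hsp90aa1, that last difference was 0.75 (adjusted p = 0.0922). These calls were lost under 12 alternatives for Ppp2r5c (-0.097 with library totals, adjusted p = 0.51), 13 for Yy1 (highest adjusted p = 0.132), 7 for Slc25a29 (0.079) and 10 for Hsp90aa1 (0.0951).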

How the results depend on the processing

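Of 218 counts of calls compared with their value in the reported fit, 198 stayed within 1.5 times and 20 did not. Of 1848 single values, 1702 kept their direction and side of the threshold, 82 lost the call, 27 gained one, 33 changed sign and 4 correlations moved. None of the values that changed sign had passed the threshold, and where a call was lost or turned the cause was not tested. Windows of 2 Mb held 22, 19, 24 and 31 called genes, and windows of 5 Mb 45, 52, 54 and 73, in the order overexpressor and knockout myoblasts, overexpressor and knockout myotubes. These windows hold more genes, and over all genes 40.4%, 53.0%, 57.1% and 68.0% were called in that order. Of the 10 genes, 1 and not 2 differed in response between overexpressor and control under DESeq2 size factors, library totals, no filter and the DESeq2 Wald test (1 to 2 when a library was left out). In the reported fit 39.0% of all genes did. With library totals 2 and not 4 of the 10 changed on differentiation in control (62.8% of all genes in the reported fit). The calls of Ppp2r5c (0.05, adjusted p = 0.584) and Dync1h1 (0.07, adjusted p = 0.432) were lost. Meg3, Mirg and Rtl1 had 0 counts in the control and could not be called in these comparisons. Leaving out a library gave 4 to 7 of the 10 for the response of overexpressor against knockout (46.7% of all genes in the reported fit), with 4 without knockout myoblast or myotube replicate B. For the 14 genes within 1 Mb in overexpressor myotubes it gave 2 to 5 (57.1% of all genes in the reported fit).

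The sign changes, all in log2, were these. Yy1 in knockout against control myoblasts was -0.0187 under DESeq2 size factors, -0.0224 with library totals, -0.0195 under the Wald test, -0.00562 with the compared groups alone, and -0.0215 to 0.0166 with a library left out. Yy1 in overexpressor against control myotubes was 0.00195 under size factors, 0.0015 under the Wald test and 0.0394 with library totals. Its change on differentiation was -0.11 in control with library totals, and in the overexpressor 0.00579 under size factors, 0.00399 under the Wald test and -0.13 to 0.00572 with a library left out. The response of Evl in the overexpressor against control was 0.00991 under size factors, 0.00961 under the Wald test, 0.0826 with library totals, and -0.16 to 0.10 with a library left out. Mirg on differentiation was 0.0333 under size factors, 0.0316 under the Wald test, and -0.0836 to 0.0211 with a library left out. Ppp2r5c on differentiation of the overexpressor was -0.0478 with library totals, and -0.0365 to 0.0736 with a library left out, and Dync1h1 in the knockout was -0.0682 with library totals. Leaving out a library, Hsp90aa1 ran from -0.18 to 0.0856 on differentiation of control and from -0.70 to 0.0834 in overexpressor against control myotubes, and Slc25a47 from -0.0173 to 0.33 in overexpressor and from -0.21 to 0.15 in knockout against control myoblasts. The correlation over overexpressor libraries ran from -0.75 to 0.78 for Meg3 with Mirg and from -0.92 to 0.65 for Rian with Mirg, and from 0.65 to 0.91 for Meg3 with Rian.

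TMM, DESeq2 size factors and library totals moved the median of all genes by over 0.1 in 9 of 12 contrasts, those between myoblast lines excepted. In overexpressor against control myotubes it was -0.04, 0.07 and 0.11, in knockout against control myotubes -0.07, 0.06 and -0.02, and in overexpressor against knockout myotubes 0.02, 0.00027 and 0.12. On differentiation it was 0.07, 0.04 and -0.17 in control, -0.02, 0.05 and -0.08 in the overexpressor, and -0.08, 0.04 and -0.24 in the knockout. For differences in response it was -0.05, 0.06 and 0.14 (overexpressor and control), -0.12, 0.04 and -0.04 (knockout and control) and 0.06, 0.02 and 0.17 (overexpressor and knockout). The share of higher calls among all genes in overexpressor against control myotubes was 45.8%, 55.1% and 57.8%. Under the replicate block (letters A to C as a term), 3 single calls were lost: Ppp2r5c on differentiation of the knockout (-0.18, adjusted p = 0.0515), and the overexpressor against knockout responses of Yy1 (0.33, adjusted p = 0.0708) and Hsp90aa1 (1.30, adjusted p = 0.0576). The letters did not pair the libraries, since 4 of 45 same-letter correlations were over 0.1 (range -0.36 to 0.26) and 0 of 18 libraries correlated best with its own letter. Genes with few counts, such as Rtl1, Begain and Rian outside the overexpressor, are limited by depth.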
